A study of Mus musculus with 12 samples.

Results

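The genes described here are 8 acid-base genes of the intercalated cell of the kidney collecting duct: Foxi1, Slc4a1, Slc26a7, Slc26a4, Atp6v1b1, Atp6v0d2, Car2 and Rhcg. They were chosen by symbol, and all 8 were found among the 23238 gene symbols of the data and passed the filter on low values. RNA of whole kidney of C57BL/6 mice was measured by QuantSeq, which reads the 3′ ends of polyadenylated transcripts, in 3 groups of 4 libraries. The groups were mice with chronic kidney disease under time restricted feeding (CKD TRF), mice with chronic kidney disease (CKD) and control mice (Control). The labels give no means of inducing the disease, no feeding hours, no age or sex and no hour of sampling. They do not say that each library came from its own animal, so p-values here speak of the spread among these libraries, which may be technical. In bulk kidney RNA, fewer cells of a type and less RNA per cell cannot be told apart.

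Intercalated cells are the acid-base cells of the collecting duct. In them carbonic anhydrase II, the product of Car2, makes protons and bicarbonate from carbon dioxide and water, and a vacuolar proton pump (V-ATPase) moves the protons. Type A cells place the pump on the urinary side and return bicarbonate to blood through the exchanger AE1 (Slc4a1), so they secrete acid. Type B cells secrete bicarbonate into urine through pendrin (Slc26a4). The transcription factor Foxi1 is needed for both types in mice, and the ammonia channel Rhcg, which principal cells also make, carries ammonia into the urine.

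Levels are given as scaled reads: the deposited values are log2 of a scaled read number plus 1, and that number is close to CPM in size. The libraries held 14145694 to 17209764 reads in CKD TRF, 14512649 to 16857898 in CKD and 10989947 to 12810530 in Control. A change is the first group's mean log2 value minus the second's, given ± SE from a limma fit with 4 libraries per group, and a gene is called at an adjusted p (Benjamini-Hochberg over 13943 tested genes) under 0.05. Of the tested genes, 45.4% were called in CKD against Control, 37.5% in CKD TRF against Control and 0% in CKD TRF against CKD. Scaled reads summed to 987841 to 1025834 per library in CKD TRF, to 941189 to 978419 in CKD and to 1076773 to 1180101 in Control. Scaling every library to the same sum moved the median change of all genes in CKD against Control to 0.23, against 0.02 as deposited. The share of called genes that were higher in CKD was then 76.3%, against 52.1% as deposited and 40.3% with medians set equal. Markers of fat stood at least 1 log2 unit above every Control library in 5 diseased libraries (CKD TRF 1, 3 and 4, CKD 2 and 4), whose mean over 12 markers was 3.46 to 5.23, against at most 1.82 in Control. Markers of urothelium were also higher in these 5, at means of 2.98 to 3.47, against 1.75 to 1.94 in the other 3 diseased libraries and at most 1.14 in Control. Fits without these 5 libraries keep CKD TRF 2 alone in CKD TRF, and CKD 1 and 3 in CKD. For a call lost there, an effect of fat cannot be told apart from that of fewer libraries. Another fit used the mean of 20 fat and urothelium markers as a covariate. Urothelium markers were higher in every diseased library than in every Control library, so that fit can also take away part of a group difference. All 24 other genes listed as enriched in intercalated cells were above 0 in every library, as were all listed markers of principal cells, proximal tubule and macrophages, so detection in bulk RNA does not assign the 8 genes to a cell type.

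**Figure D1:**
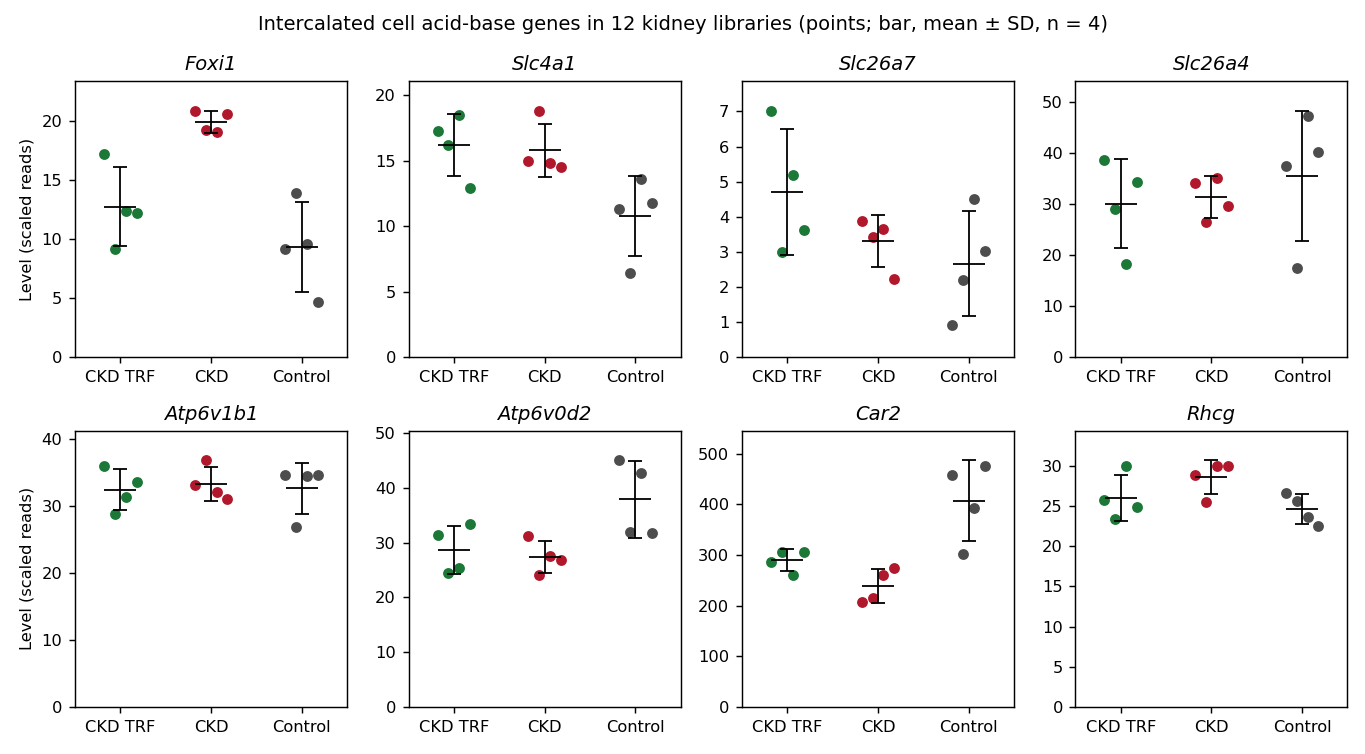
Level in scaled reads (vertical axes, from 0) of the 8 genes in each of the 12 kidney libraries, by group; points are libraries and bars are mean ± SD of 4. The 4 CKD points of Foxi1 lie between 19.1 and 20.9, above every point of both other groups, and the 4 CKD points of Car2 lie between 206 and 273, below every Control point.

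Of the 8 genes, 2 rose and 2 fell in CKD against Control, where 23.6% of all tested genes rose and 21.8% fell. Foxi1 and Slc4a1 rose, Car2 and Atp6v0d2 fell, and Slc26a4, Slc26a7, Atp6v1b1 and Rhcg were not called. In CKD TRF against Control, 1 rose (Slc4a1) and 2 fell (Car2 and Atp6v0d2), where 19.5% of all tested genes rose and 17.9% fell. The groups did not overlap in CKD against Control for the same 4 genes that were called, beside 39.5% of all tested genes, and in CKD TRF against Control they overlapped for all 8, beside 31.9% of tested genes with no overlap. The median change of the 8 was 0.12 in CKD against Control and 0.03 in CKD TRF against Control, and that of all tested genes was 0.02 and 0.01. As a group the 8 genes were thus called about as often as other genes, and they did not move in one direction.

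**Figure D2:**
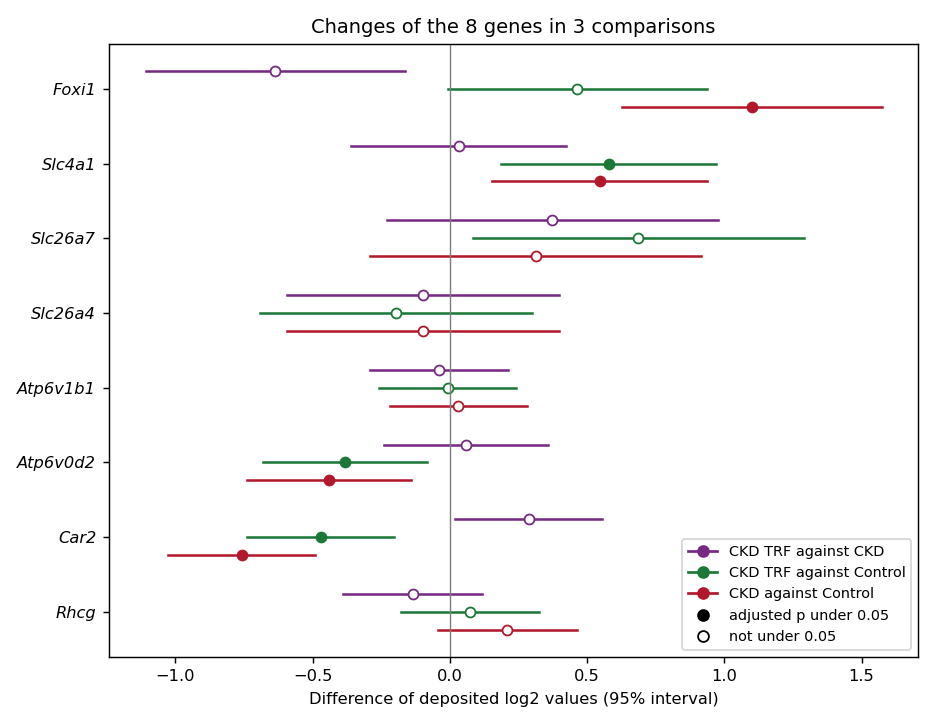
Difference of deposited log2 values (horizontal axis, with its 95% interval) of each of the 8 genes in the 3 comparisons; filled points passed an adjusted p of 0.05 and open points did not. Foxi1 lies at 1.10 and Car2 at -0.76 in CKD against Control, and every point of CKD TRF against CKD is open.

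Foxi1, the forkhead transcription factor that intercalated cells need, had the largest change of the 8 in CKD against Control. It stood at 17.3, 9.21, 12.4 and 12.2 scaled reads in CKD TRF 1 to 4, at 20.9, 19.2, 19.1 and 20.7 in CKD 1 to 4, and at 9.19, 13.9, 9.61 and 4.66 in Control 1 to 4. All 4 CKD libraries were above all others, and CKD TRF overlapped Control. The means were 12.8 ± 3.33 in CKD TRF, 19.97 ± 0.937 in CKD and 9.34 ± 3.78 in Control (SD, n = 4 each), so the mean was 2.14-fold higher in CKD than in Control. The change was 1.10 ± 0.23 in CKD against Control (adjusted p = 5.62e-04, limma), and it was called in all 25 alternatives run, at 0.84 to 1.31. In CKD TRF against Control it was 0.46 ± 0.23 (adjusted p = 0.114, limma), and 0.06 to 0.68 over 25 alternatives. It passed in 3 of the 25, among them the fit without Control 2 (0.67 ± 0.21, adjusted p = 0.02, limma), the highest Control library. The gene lies at chr11:34204338-34208089 on the minus strand of mm10, and no exon of another annotated gene overlaps it.

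Foxi1 is known in mice to be needed for the expression of Atp6v1b1 and Slc26a4, so their promoters are shown to set beside the values of these genes that follow. RefSeq entries (build GRCm38.p6) were at hand for 4 of the 8 genes: Atp6v1b1, Slc26a4, Foxi1 and Rhcg. Each line gives the 250 bases before the RefSeq transcription start, 5′ to 3′ on the gene's strand, with motifs in capitals.
Atp6v1b1: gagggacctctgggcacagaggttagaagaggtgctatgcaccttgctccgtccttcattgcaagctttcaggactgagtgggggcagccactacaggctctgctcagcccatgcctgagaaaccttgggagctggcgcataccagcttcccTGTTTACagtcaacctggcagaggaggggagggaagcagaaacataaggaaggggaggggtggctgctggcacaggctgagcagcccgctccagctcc
Slc26a4: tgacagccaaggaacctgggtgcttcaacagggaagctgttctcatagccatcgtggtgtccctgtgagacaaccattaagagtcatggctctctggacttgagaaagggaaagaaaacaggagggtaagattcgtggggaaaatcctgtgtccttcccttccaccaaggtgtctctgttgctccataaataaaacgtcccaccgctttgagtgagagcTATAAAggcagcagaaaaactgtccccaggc
The Atp6v1b1 promoter, chr6:83742767-83743016 on the plus strand, held TGTTTAC, the other strand of the forkhead motif GTAAACA, at 98 to 92 bases before that start. Gene positions in the text are those of GENCODE, which starts Atp6v1b1 further upstream, so the last 27 bases of this line lie inside the gene as GENCODE has it. The Slc26a4 promoter, chr12:31559985-31560234 on the minus strand, held neither strand of the core TAAACA, which is contained in the longer motif. It held a TATA motif, TATAAA, searched on the gene's strand, at 31 to 26 bases before the start. Neither the Foxi1 nor the Rhcg promoter held the core. Among 32851 promoters of the same length, 12.03% held the core on either strand, 3.17% the longer motif and 7.59% TATAAA. Such matches describe letters only.

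Slc4a1 encodes the anion exchanger AE1, which in type A cells passes bicarbonate to the blood side and in red cells is the band 3 protein. It stood at 17.3, 16.2, 18.5 and 12.9 scaled reads in CKD TRF 1 to 4, at 15.0, 18.8, 14.9 and 14.5 in CKD 1 to 4, and at 11.3, 6.45, 13.6 and 11.8 in Control 1 to 4. Every CKD library was above every Control library, while CKD TRF 4 lay within the Control range, and Control 2 was far below the other Control libraries. Slc4a1 rose by 0.55 ± 0.19 in CKD (adjusted p = 0.0230, limma) and by 0.58 ± 0.19 in CKD TRF (adjusted p = 0.0201, limma), both against Control. The call in CKD was lost in 6 of 25 alternatives: without Control 2 (0.34 ± 0.16, adjusted p = 0.0916), without CKD 2 (adjusted p = 0.0803), with equal medians, with quantile normalization, with a fat and urothelium covariate and without the 5 libraries with fat markers (adjusted p = 0.0562 to 0.187). In CKD TRF it was also lost in 6 of 25, among them the fits without Control 2 (0.37 ± 0.16, adjusted p = 0.0747), CKD TRF 1 (adjusted p = 0.0501) and CKD TRF 3 (adjusted p = 0.0613). The kidney form of AE1 lacks the start of the red cell form and shares its 3′ end, so 3′ reads of the locus at chr11:102348824-102366203 (minus strand) do not separate the forms. Of 6 tested markers of red cells, 5 fell in CKD, among them Hba-a2, an alpha globin, by 2.70, Hbb-bt, a beta globin, by 1.94 and Alas2, the erythroid heme synthesis enzyme, by 1.65 ± 0.28. The summed level of 10 red cell markers was 2845 to 4396 scaled reads in CKD TRF, 2034 to 3353 in CKD and 4891 to 13521 in Control, and Rhag, Rhd and Tspo2 were at 0 in 10 or 11 of the 12 libraries. The part of red cells in the level of Slc4a1 was not tested.

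Slc26a7, a chloride and bicarbonate exchanger of the blood-facing membrane of medullary type A cells, was the lowest of the 8 in reads. It stood at 7.02, 2.98, 5.19 and 3.61 scaled reads in CKD TRF 1 to 4, at 3.89, 3.42, 3.66 and 2.23 in CKD 1 to 4, and at 0.919, 2.21, 4.51 and 3.01 in Control 1 to 4, from 9 to 98 reads per library. The 3 groups overlapped. Its change was 0.31 ± 0.29 in CKD (adjusted p = 0.398, 95% interval -0.29 to 0.92) and 0.69 ± 0.29 in CKD TRF (adjusted p = 0.0682), both against Control (limma). The second was 0.22 to 0.92 over 24 alternatives and passed in 3 of them. Among these were the fits without Control 3 (0.92 ± 0.29, adjusted p = 0.0178, limma) and without CKD TRF 2 (0.84 ± 0.30, adjusted p = 0.0398, limma).

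Slc26a4 encodes pendrin, the bicarbonate secreting exchanger of type B and of the related non-A, non-B cells. It stood at 38.6, 29.1, 18.4 and 34.3 scaled reads in CKD TRF 1 to 4, at 34.2, 26.5, 35.2 and 29.6 in CKD 1 to 4, and at 37.5, 17.4, 47.2 and 40.2 in Control 1 to 4. The groups overlapped, and the lowest values were those of Control 2 and CKD TRF 3. The change was -0.10 ± 0.24 in CKD (adjusted p = 0.768, 95% interval -0.59 to 0.40) and -0.20 ± 0.24 in CKD TRF (adjusted p = 0.548), both against Control (limma). Without Control 2 the change in CKD TRF was -0.50 and was called (adjusted p = 0.0426).

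A factor common to all genes of a library largely cancels in the difference of 2 genes within it, apart from the effect of the added 1 on low values. Slc26a4 minus Slc4a1, on the log2 scale, was -0.01 to 1.34 in CKD TRF, 0.47 to 1.19 in CKD and 1.30 to 1.72 in Control. The 4 CKD libraries lay below all 4 Control libraries, and CKD TRF 4 (1.34) overlapped Control 2 (1.30). The means were 0.81 ± 0.59 in CKD TRF, 0.95 ± 0.33 in CKD and 1.59 ± 0.19 in Control (SD, n = 4 each), so the transcript of the type A exchanger stood closer to that of the type B exchanger in CKD than in Control. These values are a description with no test.

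**Figure D3:**
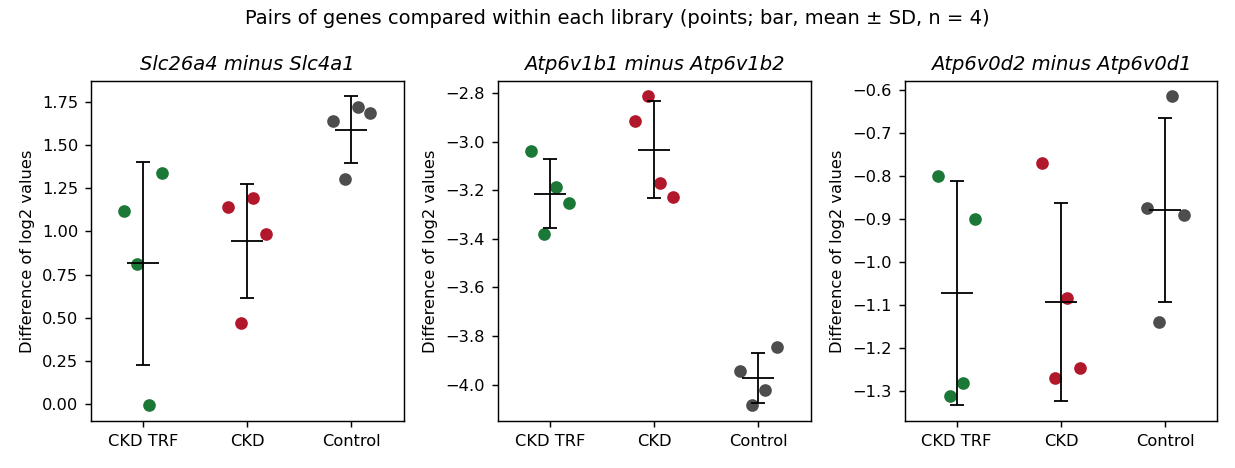
Difference of log2 values of 2 genes within each library (vertical axes) for Slc26a4 minus Slc4a1, Atp6v1b1 minus Atp6v1b2 and Atp6v0d2 minus Atp6v0d1; points are libraries and bars mean ± SD of 4. The Atp6v1b1 minus Atp6v1b2 points of both diseased groups lie at -3.38 to -2.81, above all Control points at -4.09 to -3.84.

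All 5 genes listed as type A markers rose in CKD against Control (median change 0.84) and 3 rose in CKD TRF (median 0.58), while 0 of the 6 genes listed as type B markers were called in either (medians -0.01 and -0.19). Slc4a8, the sodium-driven exchanger that works beside pendrin in type B cells, is not in that list of 6 and rose in CKD by 0.71 ± 0.19 (adjusted p = 0.00544, limma), a call lost with quantile normalization (adjusted p = 0.106), and it was at 0.46 ± 0.19 in CKD TRF (adjusted p = 0.0719, limma). The 2 lists are short and their contrast was not tested. Slc4a1 and Slc26a4 are in these lists. Slc26a7, given above as an exchanger of type A cells, is in neither list. It was not called in CKD (0.31 ± 0.29, adjusted p = 0.398, limma) or in CKD TRF (adjusted p = 0.0682, limma). Of all tested genes, 23.6% rose in CKD and 19.5% in CKD TRF, both against Control. Kit, a receptor tyrosine kinase, averaged 8.42 scaled reads in CKD TRF, 9.92 in CKD and 3.02 in Control, and rose by 1.23 ± 0.19 in CKD TRF and by 1.46 ± 0.19 in CKD (adjusted p = 5.52e-05 and 5.81e-06, limma). Adgrf5, an adhesion receptor that endothelium also expresses, rose by 0.69 ± 0.14 in CKD TRF and by 0.84 ± 0.14 in CKD. Dmrt2, a transcription factor, rose in CKD (0.87 ± 0.23, adjusted p = 0.00436, limma) and was at 0.37 ± 0.23 in CKD TRF (adjusted p = 0.220, limma). Aqp6, a water channel of acid secreting vesicles, rose in CKD by 0.39 ± 0.15 (adjusted p = 0.0420, limma), a call lost in 13 alternatives. The count of 5 in CKD became 2 with quantile normalization, with the fat and urothelium covariate and without the libraries with fat markers. It became 3 with equal medians, without Control 2 and without CKD 2, and in the upper 40% of genes, where 3 markers were tested. The 3 calls in CKD TRF became 2 with quantile normalization, with the covariate, in the upper 40% of genes and without Control 2, CKD TRF 1 or CKD TRF 3, and 1 without the libraries with fat markers.

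**Figure D4:**
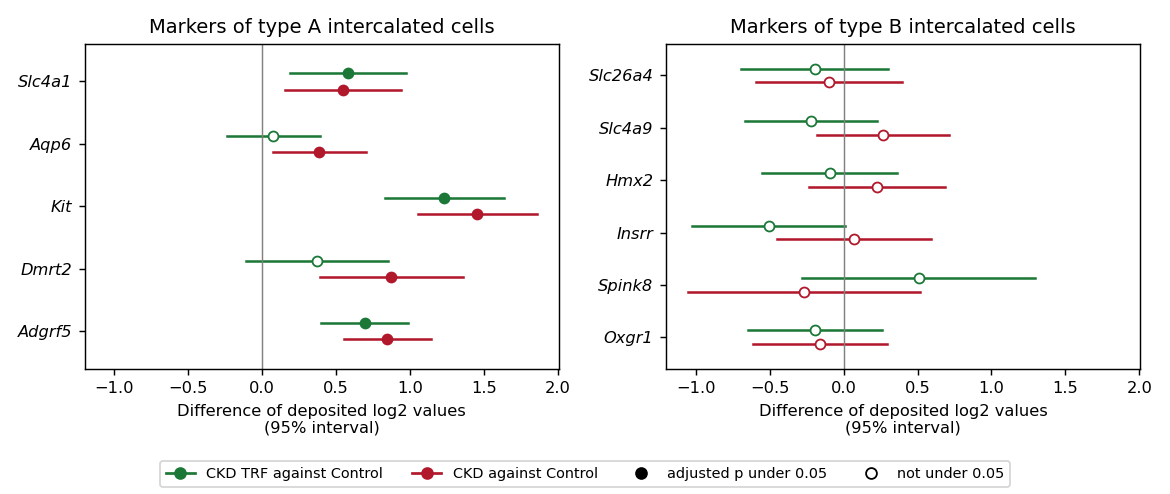
Difference of deposited log2 values with 95% intervals (horizontal axes) for markers of type A cells and of type B cells in CKD TRF and CKD, each against Control; filled points passed an adjusted p of 0.05. All 5 type A points of CKD are filled and lie between 0.39 and 1.46, and all type B points are open.

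Among type B markers, Slc4a9, the exchanger AE4 of the blood side, was at -0.22 ± 0.21 in CKD TRF and 0.27 ± 0.21 in CKD against Control (adjusted p = 0.443 and 0.328, limma). Insrr, a receptor related to the insulin receptor, was at -0.51 ± 0.25 in CKD TRF (adjusted p = 0.117, limma), and was called lower there with quantile normalization (-0.85 ± 0.25, adjusted p = 0.0126) and without CKD TRF 4 (-0.73 ± 0.24, adjusted p = 0.0234). Spink8, a protease inhibitor gene, followed the libraries with fat markers: its log2 value was 5.45 to 6.23 in those 5 and 3.52 to 4.34 in the other 3 diseased libraries. Its change in CKD was -0.27 ± 0.38 as deposited, -1.08 ± 0.22 without those libraries and -1.60 ± 0.23 with the covariate (adjusted p = 0.592, 0.00280 and 3.59e-05, limma). In CKD TRF it was 0.51 ± 0.38 as deposited (adjusted p = 0.309), and it was called lower with the covariate (-0.75 ± 0.22, adjusted p = 0.0187) and higher without CKD TRF 2 (0.93 ± 0.33, adjusted p = 0.0358). For Foxi1 the ranges overlapped, at 3.73 to 4.44 in the 5 libraries and 3.35 to 4.45 in the other 3. Within CKD, Foxi1 was at 4.34 and 4.44 with fat markers and at 4.45 and 4.33 without. Within CKD TRF, the 1 library without fat markers (CKD TRF 2) was lowest, at 3.35 against 3.73 to 4.19. The part of fat and urothelium in the other results was not tested beyond the fits without those libraries and with the covariate. Over all 24 other genes enriched in intercalated cells, 9 rose and 2 fell in CKD (median 0.14). In CKD TRF, 6 rose and 2 fell (median 0.08). Of all tested genes, 23.6% rose and 21.8% fell in CKD, and 19.5% rose and 17.9% fell in CKD TRF. The 9 rises became 5 with quantile normalization or the covariate and 4 in the upper 40% of genes, where 16 were tested, and the 2 falls became 1 without Control 4, CKD 1 or CKD 2, 0 with quantile normalization or equal sums and 4 with sample weights. In CKD TRF the 6 rises became 3 with the covariate or without CKD TRF 3 and 1 without the libraries with fat markers, and the 2 falls became 1 at equal sums and 0 without those libraries. Those that rose in CKD include P2ry14, a receptor for UDP-glucose (1.18 ± 0.30), and Kcnma1, a large conductance potassium channel (0.88 ± 0.21). P2ry14 was low, at 0.83 to 4.48 scaled reads in Control, and its CKD and Control libraries overlapped. Its call in CKD TRF (0.78 ± 0.30, adjusted p = 0.0468, limma) was lost in 19 alternatives.

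Atp6v1b1 encodes the B1 subunit of the catalytic head of the proton pump, the form enriched in intercalated cells, where most other cells use B2. It stood at 35.9, 28.8, 31.2 and 33.5 scaled reads in CKD TRF 1 to 4, at 33.0, 36.8, 32.1 and 31.0 in CKD 1 to 4, and at 34.5, 26.9, 34.4 and 34.6 in Control 1 to 4. All groups overlapped, and Control 2 was apart from 3 near-equal Control libraries. The change was 0.03 ± 0.12 in CKD (adjusted p = 0.857, 95% interval -0.22 to 0.28) and -0.01 ± 0.12 in CKD TRF (adjusted p = 0.967), both against Control (limma).

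Atp6v1b2, the B2 subunit of all cells, fell by 0.77 ± 0.09 in CKD TRF and by 0.91 ± 0.09 in CKD (adjusted p = 2.69e-06 and 2.05e-07, limma). Its means were 308 scaled reads in CKD TRF, 279 in CKD and 526 in Control. B1 minus B2 within a library was -3.38 to -3.04 in CKD TRF, -3.23 to -2.81 in CKD and -4.09 to -3.84 in Control, and neither diseased group overlapped Control. Proximal tubule is rich in the B2 subunit, and of 11 proximal tubule markers 7 fell in CKD TRF and 7 in CKD (medians -0.64 and -0.57), among them in CKD Slc5a2, a glucose transporter (-1.11), and Hnf4a, a transcription factor (-1.09). All 11 were above 0 in every library, with a summed level of 7591 to 9174 scaled reads in CKD TRF, 7250 to 7856 in CKD and 9400 to 11806 in Control. The 7 falls became 11 in CKD with sample weights and 3 in CKD TRF without the libraries with fat markers. Their part in the fall of Atp6v1b2 was not tested.

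Atp6v0d2 encodes the d2 subunit of the pump's membrane sector, found in intercalated cells and also in osteoclasts and some macrophages. It stood at 31.4, 24.5, 25.4 and 33.4 scaled reads in CKD TRF 1 to 4, at 31.2, 24.04, 27.6 and 26.8 in CKD 1 to 4, and at 45.0, 31.9, 42.8 and 31.8 in Control 1 to 4. CKD lay below Control, by a narrow margin between CKD 1 and Control 4, and CKD TRF overlapped Control. It fell by 0.44 ± 0.14 in CKD (adjusted p = 0.0166, limma) and by 0.38 ± 0.14 in CKD TRF (adjusted p = 0.0406, limma), both against Control. The call in CKD was lost in 6 of 25 alternatives, with adjusted p of 0.0521 to 0.246: with equal sums, with the covariate, without the libraries with fat markers, and without Control 1, Control 3 or CKD 2. That in CKD TRF was lost in 11 of 25, among them the fits without Control 1, Control 3, CKD 3, CKD TRF 2 or CKD TRF 3 (adjusted p = 0.0502 to 0.138). Markers of macrophages rose, 12 of 12 in CKD TRF and in CKD, with a summed level of 641 to 822 scaled reads in CKD TRF, 691 to 873 in CKD and 200.4 to 247 in Control. Of the 6 tested markers of osteoclasts and lipid-handling macrophages, 5 rose in both, among them in CKD Gpnmb (4.85) and Trem2 (2.25), while Dcstamp and Ocstamp, needed for osteoclast fusion, were at 0 in 6 and 7 libraries. The 5 rises became 2 in the upper 40% of genes, a filter that left Trem2 and Ctsk, another of these markers, untested. Fewer were called in CKD TRF without the libraries with fat markers, where 1 CKD TRF library was left. Their part in the level of Atp6v0d2 was not tested. Atp6v0d2 minus its general partner Atp6v0d1 overlapped between all groups, at means of -1.07 ± 0.26 in CKD TRF, -1.09 ± 0.23 in CKD and -0.88 ± 0.21 in Control (SD, n = 4 each).

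Of 17 pump subunits that intercalated cells share with every cell, 7 fell, 9 were not called and 1 rose in CKD (median -0.23). In CKD TRF, 4 fell and 1 rose (median -0.13). Of all tested genes, 21.8% fell and 23.6% rose in CKD, and 17.9% fell and 19.5% rose in CKD TRF. In CKD the falls included Atp6v0e (-0.51 ± 0.13) and Atp6v0e2 (-0.47 ± 0.11), small subunits of the membrane sector, and Atp6v0a1, a proton path subunit, rose by 0.45 ± 0.12. The 7 falls in CKD depended on scaling, with 1 at equal sums, 2 with quantile normalization and 14 with equal medians. Those in CKD TRF came to 1, 2 and 5. Without the libraries with fat markers, 4 fell in CKD and 1 in CKD TRF. Of the other subunits enriched in intercalated cells, Atp6v0a4, the a4 subunit, fell by 0.45 ± 0.10 in CKD TRF and by 0.45 ± 0.10 in CKD (adjusted p = 0.00101 and 7.31e-04, limma). The call in CKD was lost with quantile normalization (-0.16 ± 0.09, adjusted p = 0.191, limma) and at equal sums (-0.22 ± 0.09, adjusted p = 0.0573, limma). That in CKD TRF was lost with quantile normalization (-0.20 ± 0.09, adjusted p = 0.102, limma). It was also lost without the libraries with fat markers, at -0.39 with 1 CKD TRF library left. Mean levels of Atp6v0a4 were 250 scaled reads in CKD TRF, 249 in CKD and 342 in Control. Those of Atp6v1b1 were 32.3, 33.2 and 32.6. The part of other cell types in the fall of Atp6v0a4 was not tested. Atp6v1g3, the G3 subunit, fell in CKD by 0.29 ± 0.10 (adjusted p = 0.0263, limma), a call lost in 8 alternatives.

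Car2, carbonic anhydrase II, was the gene of the 8 that fell most. It stood at 287, 305, 261 and 306 scaled reads in CKD TRF 1 to 4, at 206, 215, 260 and 273 in CKD 1 to 4, and at 459, 301, 393 and 477 in Control 1 to 4. All CKD libraries were below all Control libraries, and CKD TRF 2 and 4 were just above Control 2, the lowest Control library. The means were 290 ± 21.1 in CKD TRF, 239 ± 33.0 in CKD and 407 ± 79.5 in Control (SD, n = 4 each). Car2 fell by 0.76 ± 0.13 in CKD (adjusted p = 8.23e-05, limma), a call kept in 25 of 25 alternatives at -0.90 to -0.46. In CKD TRF it fell by 0.47 ± 0.13 (adjusted p = 0.00678, limma), a call lost in 3 of 25 alternatives. These were quantile normalization and equal sums (adjusted p = 0.165 and 0.0687, limma), and the fit without the libraries with fat markers. That fit keeps 1 CKD TRF library, and the change in it was -0.39. The enzyme is also made in proximal tubule, whose markers fell as given above, and their part in the change of Car2 was not tested. The gene lies at chr3:14886273-14900770 on the plus strand.

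Of 15 other carbonic anhydrases, 12 were tested: 5 fell and 0 rose in CKD (median -0.21), and 4 fell and 1 rose in CKD TRF (median -0.11). Of all tested genes, 21.8% fell and 23.6% rose in CKD, and 17.9% fell and 19.5% rose in CKD TRF. Car1 and Car10 were at 0 in every library. Car9, a membrane enzyme known for its response to low oxygen, averaged 5.07 scaled reads in CKD TRF, 4.60 in CKD and 14.7 in Control, and fell by 1.38 ± 0.23 in CKD TRF and by 1.49 ± 0.23 in CKD (adjusted p = 8.81e-05 and 2.49e-05, limma). Car4, the membrane-bound enzyme of the proximal tubule, fell by 0.69 ± 0.11 in CKD TRF and by 0.70 ± 0.11 in CKD. Car7, a cytosolic enzyme, fell in CKD by 0.62 ± 0.24 (adjusted p = 0.0377, limma), a call lost in 12 alternatives. Car15 was the 1 that rose in CKD TRF (0.35 ± 0.11, adjusted p = 0.0209, limma), and it was named after its value was seen. That call was lost without Control 3, Control 4 or CKD TRF 3, with equal medians, with the covariate and without the libraries with fat markers. The 5 falls in CKD became 3 at equal sums. They also became 3 in the upper 40% of genes, a filter that left Car9 and Car7 untested. Fewer of the 4 in CKD TRF were called without the libraries with fat markers, where 1 CKD TRF library was left.

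Rhcg, the ammonia channel of the collecting duct, stood at 25.8, 23.3, 30.0 and 24.8 scaled reads in CKD TRF 1 to 4, at 28.9, 25.6, 30.0 and 30.0 in CKD 1 to 4, and at 26.6, 25.6, 23.6 and 22.5 in Control 1 to 4. All groups overlapped. The change was 0.21 ± 0.12 in CKD (adjusted p = 0.165, 95% interval -0.04 to 0.46) and 0.07 ± 0.12 in CKD TRF (adjusted p = 0.665), both against Control (limma). At equal sums the change in CKD was 0.43 ± 0.12 and was called (adjusted p = 0.00596), where the median of all genes was 0.23. Rhbg, the relative on the blood side, was at -0.08 ± 0.13 in CKD TRF and 0.13 ± 0.13 in CKD (adjusted p = 0.653 and 0.424, limma). Principal cells also express Rhcg, and 5 of 10 principal cell markers rose and 1 fell in both CKD TRF and CKD (medians 0.58 and 0.47). Of all tested genes, 19.5% rose and 17.9% fell in CKD TRF, and 23.6% rose and 21.8% fell in CKD. All 10 principal cell markers were above 0 in every library. Their summed level was 425 to 941 scaled reads in CKD TRF, 378 to 692 in CKD and 304 to 378 in Control. Without the libraries with fat markers, which leaves CKD 1 and 3 in CKD, the 5 rises became 2 in CKD. In CKD TRF that fit keeps 1 library, and the calls of the markers Aqp2, Hsd11b2 and Gata3 were lost. Their changes there were 0.60, 0.78 and 0.64, against 1.555, 0.58 and 1.00 as deposited. The 5 rises became 3 in CKD TRF without Control 1 or CKD TRF 1 and 3 in CKD without Control 2, CKD 2 or CKD 4. In CKD, Gata3, a transcription factor, rose by 1.30 ± 0.15 and Scnn1g, a sodium channel subunit, fell by 1.07 ± 0.25. Aqp2, a water channel, rose in CKD by 0.91 ± 0.29 and was at -0.08 ± 0.21 with the covariate. Log2 values of Aqp2 were 8.44 to 9.33 in the 5 libraries with fat markers and 7.13 to 7.66 in the other 3 diseased libraries. Those of Gata3 were 5.22 to 5.77 and 4.74 to 5.20. The part of principal cells in the level of Rhcg was not tested.

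Of 21 other acid-base transporters of the kidney, 17 were tested, of which 5 rose and 1 fell in CKD (median 0.18). In CKD TRF, 4 rose and 1 fell (median 0.20). Of all tested genes, 23.6% rose and 21.8% fell in CKD, and 19.5% rose and 17.9% fell in CKD TRF. Slc4a7, a sodium bicarbonate cotransporter, rose by 0.72 ± 0.15 in CKD TRF and by 0.93 ± 0.15 in CKD (adjusted p = 6.52e-04 and 3.61e-05, limma). Slc4a11, a proton-conducting relative, rose by 0.75 ± 0.20 in CKD TRF and by 0.93 ± 0.20 in CKD. Slc26a1, a sulfate exchanger of the proximal tubule, fell by 0.43 ± 0.10 in CKD TRF and by 0.88 ± 0.10 in CKD (adjusted p = 0.00259 and 1.30e-06, limma). Slc26a6, an exchanger related to pendrin, was at 0 in 4 libraries and was not tested. The 5 rises in CKD became 3 without Control 2, CKD 1 or CKD 2, without the libraries with fat markers, with equal medians and with quantile normalization. The 4 rises in CKD TRF became 7 at equal sums, 1 with the covariate and 0 without the libraries with fat markers.

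Whether time restricted feeding went with a difference in diseased kidneys is asked by CKD TRF against CKD. None of the 8 genes was called by limma, and of all 13943 tested genes 0 were called, 890 (6.38%) had an unadjusted p under 0.05, and voom on recovered reads also called 0. Foxi1 was at -0.64 ± 0.23 (95% interval -1.11 to -0.16, unadjusted p = 0.0108, adjusted p = 0.705), and all 4 CKD TRF libraries were below all 4 CKD libraries. Groups with no overlap, in either direction, were found for 4.5% of tested genes. Car2 was at 0.29 ± 0.13 (unadjusted p = 0.0371, adjusted p = 0.750, limma), with overlapping groups. The other 6 genes had adjusted p of 0.854 to 0.984. As no tested gene was called, no list could hold a called gene. The 24 other genes enriched in intercalated cells had a median of -0.22, with 17 below 0. The median was -0.003 for the 8 genes, of which 4 were below 0, and -0.0075 for all tested genes. As the median of all tested genes was just below 0, more of them were below 0 than above it. Their exact share was not determined.

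The 8 genes did not vary as a block between libraries of a group. Over their 28 pairs, the correlation of deviations from group means over the 12 libraries had a median of 0.21, with 18 above 0 and 10 below. It was lowest for Foxi1 with Car2 (-0.63) and highest for Slc4a1 with Atp6v1b1 (0.70), and Slc26a4 had 0.66 with Atp6v1b1, 0.65 with Car2 and 0.63 with Atp6v0d2. Control 2 was the lowest Control library for Slc4a1, Slc26a4, Atp6v1b1 and Car2 and the highest for Foxi1. These correlations are descriptions, and the libraries share groups, depth and scaling.

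The tested genes with the most similar values over the 12 libraries (Pearson's r) differed between the 8. They were Ramp1 (0.914), Cacna1c (0.9004) and Gdpd5 (0.9001) for Foxi1, and Nub1 (0.977), Vstm2a (0.946) and Herc6 (0.945) for Slc4a1. For Slc26a7 they were Pdzrn4 (0.903), Tmem57 (0.891) and Dysf (0.889), and for Slc26a4 they were Tgoln1 (0.933), Asph (0.918) and Mtus1 (0.893). For Atp6v1b1 they were Noc3l (0.847), Mtap (0.846) and Golph3 (0.842), and for Atp6v0d2 they were Sephs1 (0.939), Pepd (0.917) and Pgm3 (0.917). Nus1 (0.958), Glud1 (0.955) and Fbxo22 (0.954) were most like Car2, and Brsk1 (0.884), Kif21b (0.852) and Fbxo42 (0.848) most like Rhcg. None of these 24 is among the 8 genes or the 24 other enriched genes, and r was chosen as the highest of 13943.

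The remaining genes lie at chr4:14502430-14621805 (Slc26a7, minus strand), chr12:31519827-31559969 (Slc26a4, minus), chr6:83742990-83758855 (Atp6v1b1, plus), chr4:19876841-19922605 (Atp6v0d2, minus) and chr7:79593363-79617657 (Rhcg, minus) in mm10. No exon of any of the 8 overlaps an exon of another annotated gene.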

How the data were processed

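Per the labels, Trizol RNA (500 ng) was made into libraries with the QuantSeq kit of Lexogen. Bowtie2, bedtools and mm10 are named in the submitters' processing notes, without roles or versions. The deposited log2 values were scaled by the authors by a method not given in the sources used here, nor is the strand setting. Each value is log2 of a scaled read number plus 1: 98.5% to 100% of low values in a library came within 0.1 of whole reads, which gave the depth. A count of 0 allows up to 3 reads (0.168 to 0.306 scaled reads), for counting error only.

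The 60% of genes with the highest mean over the 12 libraries (log2 of at least 0.729) were tested in 1 limma 3.58.1 model (R 4.3.3) of 3 groups, two-sided, with a spread that followed the mean level. Of repeated entries (35 symbols), that with the highest mean was used. Alternatives were the added number, the filter, 3 scalings, limma voom on recovered reads with the deposited scaling (chosen after seeing the data, in place of TMM factors, which were not run), sample weights, fewer groups, a replicate block, a fat and urothelium covariate, and libraries left out. Named genes were the 8, the 3 largest rises and falls per list, 5 partners and the 3 most alike per gene. The genes and lists were chosen with earlier results of these data known. Same-numbered libraries of different groups did not deviate together.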

Additional observations from a re-analysis of the deposited data

Results flagged for a closer look

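Slc4a1 in CKD 2 had a deposited log2 value of 4.31, apart from the other 3 CKD libraries, and Atp6v1b1 in Control 2 had 4.80, apart from the other 3 Control libraries. These were the 2 lone values among 24 groups of 4 libraries (8 genes in 3 groups), and chance gives about 1 in 20. Without CKD 2, the change of Slc4a1 in CKD against Control was 0.46 ± 0.20 and was not called (adjusted p = 0.0803, limma). Atp6v1b1 was called in no comparison.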

How the results depend on the processing

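Counting sign changes where either setting made a call, direction was reversed for 2 named genes, both with the fat and urothelium covariate: Aqp2 in CKD against Control (-0.08) and Spink8 in CKD TRF against Control (-0.75). Changes against Control not called as deposited also crossed 0 in some alternatives for Slc26a4 (-0.40 to 0.12 in CKD, -0.50 to 0.01 in CKD TRF), Slc26a7 (-0.04 to 0.54 in CKD), Atp6v1b1 (-0.07 to 0.25 in CKD, -0.17 to 0.13 in CKD TRF) and Rhcg (-0.07 to 0.21 in CKD TRF). Genes called came to 4037 in CKD against Control without the libraries with fat markers, and to 1478 without them and 3423 with the covariate in CKD TRF against Control. Of the 8 genes, 2 were called in CKD against Control with the covariate and 2 without those libraries, and in CKD TRF against Control 1 with quantile normalization, 1 with the covariate and 0 without those libraries, where CKD TRF keeps 1 library, assumed to vary like the others. In CKD TRF against CKD, 1 gene was called with no filter. Leaving out 1 library gave 5388 to 6311, 0 to 1 and 4396 to 5150 genes called, in CKD against Control, in CKD TRF against CKD and in CKD TRF against Control, and 2 to 4, 0 and 1 to 4 of the 8. With a replicate block, 6131, 0 and 5033 genes were called in the same order, and voom with the deposited scaling, chosen after seeing the data because TMM factors were not run, called 6082, 0 and 4913. Same-numbered deviations correlated at -0.18 to 0.11, so numbers were not taken as pairs. Equal sums gave 4989 higher and 1547 lower calls in CKD against Control and 3656 and 1431 in CKD TRF against Control, and equal medians 2650 and 3918, and 2296 and 3227, against 3297 and 3036, and 2724 and 2501, as deposited. The cause was not tested. Depth limits Slc26a7 most, at 9 reads in its lowest library.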
